A study of Rattus norvegicus with 28 samples.

Results

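The transcripts described here encode 9 enzymes of the mitochondrial tricarboxylic acid (TCA) cycle: Cs, Idh2, Idh3a, Idh3b, Idh3g, Ogdh, Dlst, Suclg1 and Sucla2. They were taken by symbol from the deposited expression table, which holds 17455 gene symbols after 1 transcript was kept for each, and each of the 9 has 1 transcript there. The study itself singles out several of them from these same libraries, so their directions are not independent evidence.

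RNA-seq was performed in duplicate on INS-1 cells, which come from a rat insulinoma and model the insulin-secreting beta cell. The 28 libraries fall into 14 groups of 2: wild-type (WT) cells or cells with a CRISPR knock-in that replaces serine by alanine in the Mediator subunit Med14 (Med14 S983A), each untreated (CON) or exposed for 1, 8 or 16 h to exendin-4 (Ex-4, 10 nM) or forskolin (FSK, 10 µM). Ex-4 activates the GLP-1 receptor, whereas FSK activates adenylyl cyclase directly, so both raise cAMP. All groups were put in serum-free medium before treatment. The knock-in lines came from sorted single cells, and the labels do not say which line gave these libraries, so the substitution and the history of a clone cannot be told apart. The labels name no separate cultures for the duplicates, although the study calls them biological replicates. All p-values therefore measure only the spread between these libraries.

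The TCA cycle oxidises acetyl-CoA in the mitochondrial matrix and passes the electrons to the respiratory chain. In beta cells its output of reducing equivalents and nucleotide triphosphates couples glucose to insulin secretion. Citrate synthase (Cs) starts the cycle. Isocitrate is oxidised either by the NAD-dependent enzyme, built of the catalytic subunit Idh3a with Idh3b and Idh3g, or by the NADP-dependent Idh2. The 2-oxoglutarate dehydrogenase complex follows, with Ogdh as its first and Dlst as its second component. Succinyl-CoA synthetase pairs the shared alpha subunit Suclg1 with 1 of 2 beta subunits: Sucla2 gives the ADP-dependent enzyme and Suclg2 the GDP-dependent one.

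Library depth ran from 42551133 to 92635979 fragments, of which 0.671% to 1.03% came from the ERCC spike-in RNAs. The deepest library was replicate 2 of Med14 S983A 8 h FSK, and the next had 57231981. Beta cell identity was checked with 10 markers. The 8 of them in the table were all above 1 TPM at the median, and Mafa and G6pc2 were not analysed here. Apart from Ins1 and Ins2, these markers summed to 8256 to 15488 TPM in WT and 3326 to 4803 TPM in Med14 S983A libraries. Iapp alone ran from 2729 to 14797 TPM over all libraries. With Ins1 and Ins2 included, the order in untreated cells was the opposite. The sums were then 45867 and 45069 TPM in WT CON and 76155 and 84696 TPM in Med14 S983A CON. The alpha cell gene Gcg ran from 165 to 1345 TPM in WT and from 6.09 to 113 TPM in Med14 S983A libraries, highest at 8 and 16 h of either agent, while Irx1 and Irx2 together summed to at most 0.077 TPM. Their part in the genotype results given further on was not tested. Markers of delta, PP and acinar cells and of fibroblasts summed to at most 0.699 TPM in any library, and the immune list to at most 1.75 TPM. Med14 itself was at 21.5 and 20.3 TPM in WT CON and at 19.6 and 20.3 TPM in Med14 S983A CON, which is no check of a point substitution.

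The 9 transcripts did not move together. Sucla2 rose 3.53-fold after 8 h of FSK in WT cells. Idh2 fell 2.81-fold in the same comparison. Idh3a rose 1.66-fold while Idh3g, a subunit of the same enzyme, fell 1.51-fold. This fall of Idh3g lay at the fold limit and was not called after ERCC scaling or median-centring. In contrast, Cs stayed between 292 and 351 TPM in all 28 libraries. The plot of TPM by group shows these patterns side by side, with the duplicates close together: the median coefficient of variation within a group was between 0.831% for Idh3g and 3.19% for Ogdh.

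**Figure D1:**
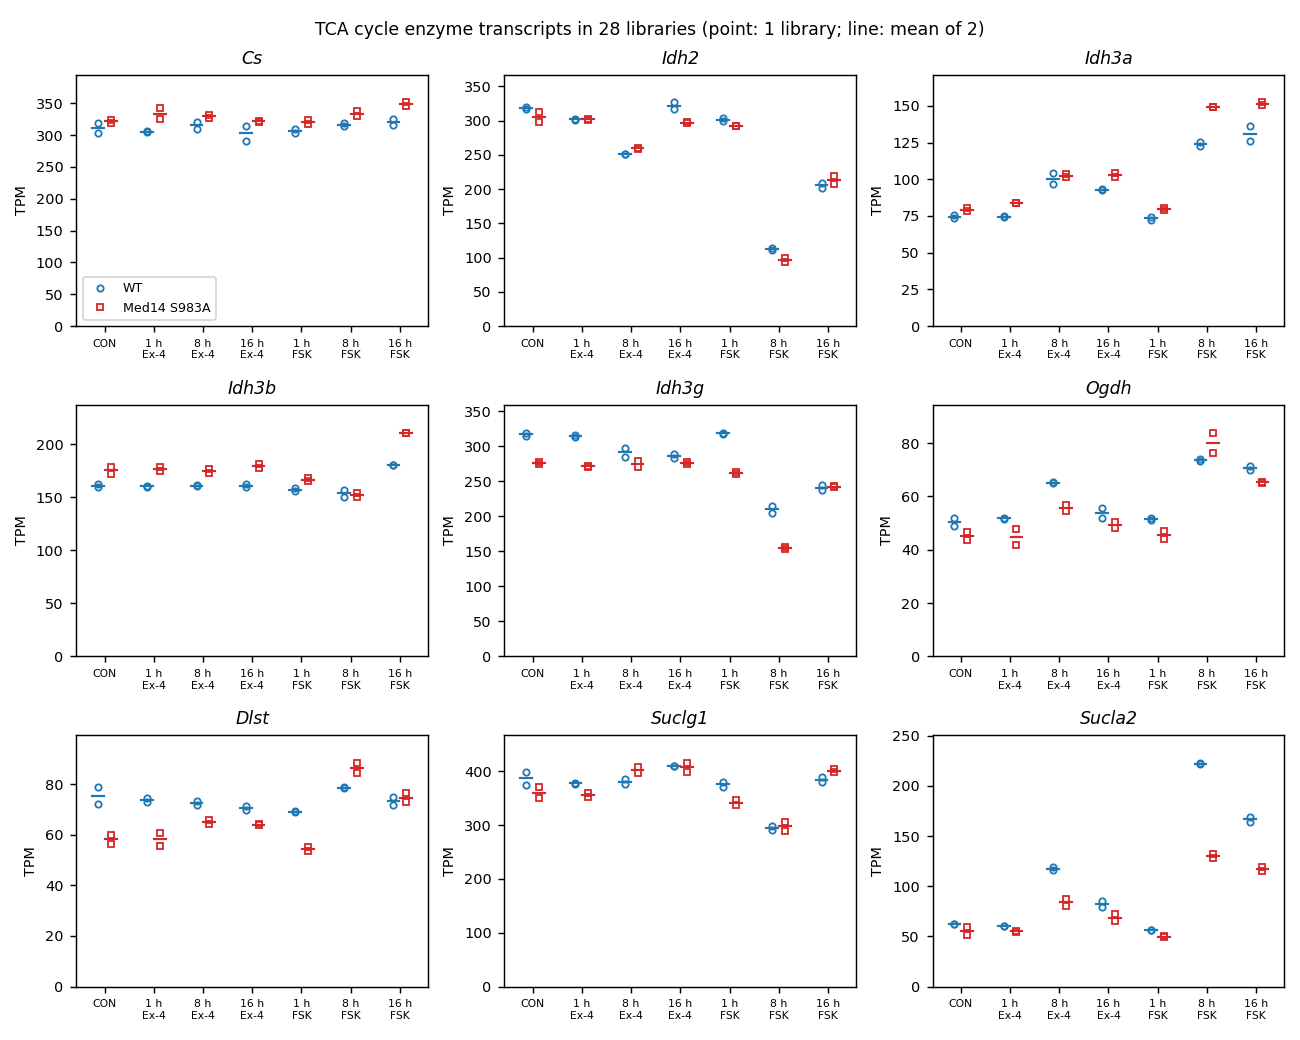
TPM (y axis, linear from 0) of the 9 transcripts in untreated cells and at 1, 8 and 16 h of Ex-4 or FSK (x axis). Blue circles are WT and red squares Med14 S983A libraries, 1 point a library, with a line at the mean of 2. Sucla2 peaks at 222 and 223 TPM in WT cells at 8 h of FSK, where Idh2 lies at 112 and 114 TPM, and Cs is nearly flat.

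Promoters of the 2 transcripts that moved most, Sucla2 and Idh2, and of Ogdh are shown because both agents act through cAMP, whose transcription factor CREB binds the cAMP response element TGACGTCA and its shorter core TGACG. The 250 bases before the transcript start were read from RefSeq (GRCr8, a later build than the rn6 of the expression table), and 8 of the 9 members had an entry. Capitals mark TGACG on either strand, so that it also appears as CGTCA, and the 2 readings overlap within TGACGTCA.
Sucla2 (chr15:55161644-55161893, plus strand): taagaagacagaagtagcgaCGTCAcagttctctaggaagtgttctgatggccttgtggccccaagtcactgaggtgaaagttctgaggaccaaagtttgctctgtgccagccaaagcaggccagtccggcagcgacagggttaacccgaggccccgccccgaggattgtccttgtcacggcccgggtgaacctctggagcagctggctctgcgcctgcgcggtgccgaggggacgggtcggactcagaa
Ogdh (chr14:85363781-85364030, plus strand): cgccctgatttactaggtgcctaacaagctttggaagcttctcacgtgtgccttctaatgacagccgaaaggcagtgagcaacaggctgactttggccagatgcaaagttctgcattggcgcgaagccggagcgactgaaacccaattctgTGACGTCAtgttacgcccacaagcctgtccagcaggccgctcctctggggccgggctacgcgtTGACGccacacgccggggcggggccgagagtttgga
Idh2 (chr1:143467249-143467498, minus strand): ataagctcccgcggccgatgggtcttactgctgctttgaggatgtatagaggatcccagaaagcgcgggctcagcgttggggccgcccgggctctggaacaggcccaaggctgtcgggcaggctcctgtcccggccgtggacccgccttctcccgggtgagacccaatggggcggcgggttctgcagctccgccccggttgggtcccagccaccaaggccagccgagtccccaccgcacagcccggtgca
Sucla2 has 1 match to the core, at position -230 from the start. Ogdh has the full TGACGTCA at -99 and a further TGACG at -36, and Idh2 has none of these letters in this window. The core was found in 5 of the 8 member promoters, and in 18.2% of 33469 RefSeq promoters of the same length. The 5 were Sucla2, Ogdh, Idh3b, Suclg1 and Idh3g, of which Idh3g fell with FSK. Cs and Dlst had none, although Dlst rose with FSK in Med14 S983A cells. Other motifs were searched too, such as CCGGAAG, found in 3 of the 8 against 7.27% of all promoters. The set of all promoters was not matched for base composition. The full element was found in the Ogdh promoter only among the 8, against 1.59% of all promoters. A match is a string of letters and not a measured binding site. The promoters were chosen after the expression values were seen. Ogdh, not among the 2 that moved most, is the only one of the 8 with the full element. Whether the matches go with the changes was not tested.

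Each treatment was compared with untreated cells of the same genotype by limma on log2(TPM + 1) over the 10275 genes whose mean TPM was 1 or more. A gene was called at a Benjamini-Hochberg adjusted p under 0.05 and a fold above 1.5. All 9 members passed the filter on low values. The 6 contrasts within a genotype share its 2 CON libraries, so they are not independent of each other. In bulk RNA, a change in the cells that express a gene and a change in RNA per cell cannot be told apart.

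At 1 h, no member was called in any of the 4 contrasts, neither by limma nor by edgeR or DESeq2. At an unadjusted p under 0.05, 1 member passed for Ex-4 in WT cells, 0 for Ex-4 in Med14 S983A cells and 3 for FSK in each genotype. Over all genes, 2.87% were called after 1 h of Ex-4 and 7.47% after 1 h of FSK in WT cells, and 3.04% and 10.4% in Med14 S983A cells. The largest of the 36 member changes in TPM was -0.15 on the log2 scale, for Sucla2 with FSK in Med14 S983A cells. After ERCC scaling it was -0.35 there. On that scale all 9 members were negative in this contrast, with a median of -0.27 against -0.30 over all genes, and 7 of 9 passed the adjusted p against 2 in TPM. After median-centring the Sucla2 change was -0.0043.

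At 8 h of Ex-4, 1 of 9 members was called in each genotype, Sucla2, against 9.6% of all genes in WT and 6.3% in Med14 S983A cells. At 8 h of FSK, 4 of 9 were called in WT cells, 2 higher and 2 lower, against 43.6% of all genes (8.77% higher and 34.8% lower). The knock-in cells had 5 of 9 called, 3 higher and 2 lower, against 46.1% (11.6% higher and 34.5% lower). The members' median log2 change at 8 h of FSK was 0.02 in WT and 0.05 in Med14 S983A cells, where the median over all genes was -0.34 and -0.28. 

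At 16 h of Ex-4, no member was called by limma in TPM without centring in either genotype. At an unadjusted p under 0.05, 4 passed in WT and 5 in Med14 S983A cells. Over all genes 11.8% and 11.9% were called. The count tools called 0 members with their own scaling, while limma after median-centring called 1 in WT cells. Also in WT cells, edgeR with ERCC library sizes called 2. DESeq2 with ERCC size factors called 2 there, against 14.6% of all genes. After 16 h of FSK, 3 of 9 members were called in WT cells (2 higher and 1 lower). Over all genes 34.5% were called, 10.3% higher and 24.1% lower. For Med14 S983A cells 2 of 9 were called, both higher, against 33.3% (12.2% higher and 21.1% lower).

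**Figure D2:**
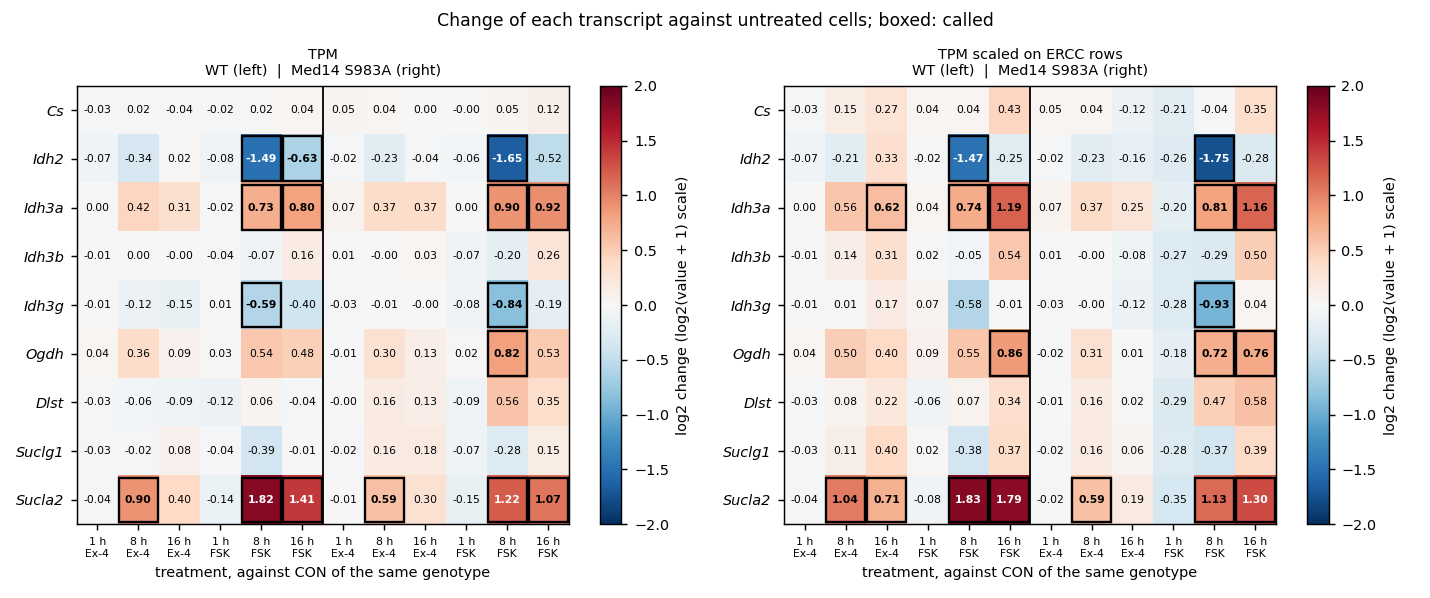
Log2 change of the 9 transcripts (rows) for the 12 treatments (columns; WT left and Med14 S983A right of the line) against CON of the same genotype, in TPM on the left and after scaling on ERCC rows on the right. Colour runs from -2 to 2 on the log2(value + 1) scale and a box marks a called change. Sucla2 has more boxes than any other row, and scaling on ERCC rows adds boxes mainly at 16 h.

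Sucla2 (NM_001108387, rn6 chromosome 15, 55461695 to 55516956) encodes the ADP-dependent beta subunit of succinyl-CoA synthetase. In WT cells it was at 62.1 and 62.4 TPM untreated, 116 and 119 TPM at 8 h of Ex-4 and 84.8 and 79.8 TPM at 16 h. FSK gave 56.8 and 56.2 TPM at 1 h, 222 and 223 TPM at 8 h and 169 and 164 TPM at 16 h. The libraries at 8 and 16 h of either agent all lay above both CON libraries, highest at 8 h, and the 1 h FSK libraries lay below them. The log2 change was 0.90 ± 0.053 (SE) at 8 h of Ex-4 (limma adjusted p 3.96e-13), and 1.82 ± 0.053 and 1.41 ± 0.053 at 8 and 16 h of FSK (adjusted p 2.07e-20 and 5.13e-18). The 16 h Ex-4 change of 0.40 passed the p but not the fold.

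In the knock-in cells, Med14 S983A, Sucla2 was at 59.6 and 51.5 TPM untreated, 80.5 and 87.1 TPM at 8 h of Ex-4 and 72.0 and 65.5 TPM at 16 h. It reached 128 and 132 TPM at 8 h and 119 and 115 TPM at 16 h of FSK. All of these exceeded both CON libraries, and each lay below the WT libraries of the same treatment. The changes of 0.59 at 8 h of Ex-4, 1.22 at 8 h of FSK and 1.07 at 16 h of FSK were called (limma adjusted p 1.35e-09, 5.46e-17 and 1.55e-15). The first of these is at the fold limit: without Med14 S983A CON replicate 2 it was 0.48 and without Med14 S983A 8 h Ex-4 replicate 2 it was 0.53, below 1.5-fold. In the order of the 14 group means, Sucla2 overlapped between neighbours in 4 of 13 pairs.

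Suclg1 (NM_053752, chromosome 4, 101181332 to 101210687), the alpha subunit that both forms of the enzyme share, did not follow. It was at 375 and 400 TPM in WT CON, 291 and 299 TPM at 8 h of FSK and 389 and 380 TPM at 16 h. The Med14 S983A cells had 371 and 350 TPM in CON, 290 and 305 TPM at 8 h of FSK and 398 and 404 TPM at 16 h. The 8 h FSK libraries lay below CON in both genotypes. The 16 h Ex-4 libraries lay above it in both, at 410 and 409 TPM in WT and 416 and 399 TPM in Med14 S983A cells, with changes of 0.08 and 0.18 (limma adjusted p 0.0518 and 0.000197) that were not called. The changes at 8 h of FSK of -0.39 in WT and -0.28 in Med14 S983A cells (limma adjusted p 3.88e-10 and 1.74e-07) did not reach 1.5-fold, and with values centred on the median gene they were -0.00036 and 0.06.

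Suclg2, the GDP-dependent beta subunit, was not a member but belongs to the same enzyme. In WT cells it was at 103 and 96.7 TPM in CON and 35.3 and 33.7 TPM at 8 h of FSK, and in Med14 S983A cells at 94.5 and 83.5 TPM and 25.4 and 28.03 TPM. The 8 h FSK libraries lay far below CON in both genotypes, where Sucla2 was highest. Its changes were -1.50 and -1.70 (limma adjusted p 2.26e-18 and 1.43e-19), with the same sign and call after ERCC scaling and median-centring. After 16 h of FSK it was at 57.0 and 57.4 TPM in WT and 78.0 and 85.6 TPM in Med14 S983A cells, and the difference of responses was 0.67 and called (limma adjusted p 8.05e-08), but 0.52 and not called after ERCC scaling.

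A ratio of TPM within a library does not depend on how libraries are scaled. The ratio of Sucla2 to Suclg2 was 0.605 and 0.645 in WT CON, 1.42 and 1.38 at 8 h of Ex-4 and 6.28 and 6.61 at 8 h of FSK. For Med14 S983A cells it was 0.631 and 0.617 in CON, 1.03 and 1.09 at 8 h of Ex-4 and 5.05 and 4.72 at 8 h of FSK. Untreated cells of both genotypes thus had more Suclg2 than Sucla2 per length, and the order was the opposite in all 8 h libraries. With 16 h of Ex-4 the ratio was under 1 in all 4 libraries (0.672 to 0.930), while at 16 h of FSK it stayed at 2.97 and 2.87 in WT and 1.53 and 1.35 in Med14 S983A cells. The ratio of Sucla2 to Suclg1 rose from 0.166 and 0.156 in WT CON to 0.761 and 0.746 at 8 h of FSK, and from 0.161 and 0.147 to 0.442 and 0.434 in Med14 S983A cells. Here the 2 genotypes were separate at 8 h of FSK but overlapped in CON. The ratio with Suclg2 was added after the data were seen.

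**Figure D3:**
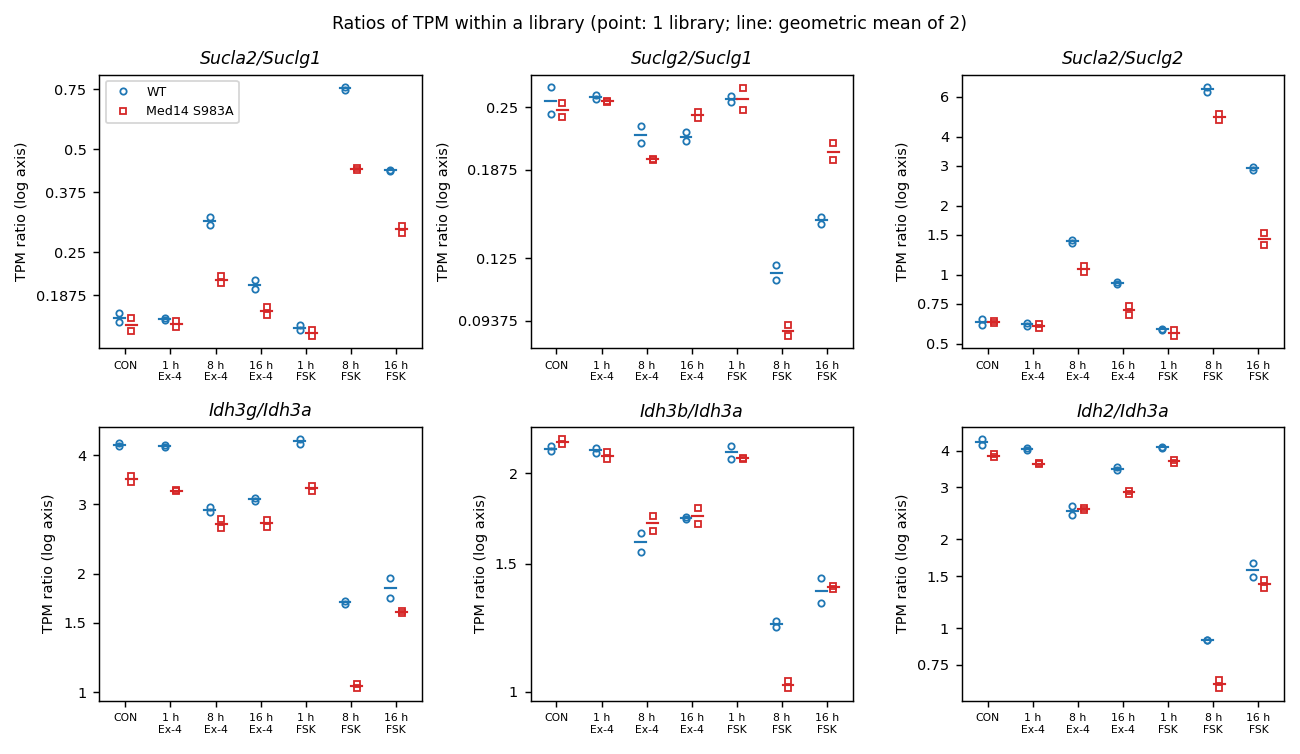
Ratios of TPM between transcripts of a library (y axis, log scale) for the subunits of succinyl-CoA synthetase and isocitrate dehydrogenase, by treatment (x axis). Points are libraries, blue circles for WT and red squares for Med14 S983A, and lines are geometric means of 2. Sucla2/Suclg2 climbs from near 0.6 to 4.72 to 6.61 at 8 h of FSK, while Idh3g/Idh3a falls from 3.43 to 4.30 in CON to 1.02 to 1.71.

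Idh2 (NM_001014161, chromosome 1, 141874356 to 141893674), the NADP-dependent isocitrate dehydrogenase of mitochondria, showed the largest fall. In WT cells it was at 316 and 320 TPM untreated, 251 and 251 TPM at 8 h of Ex-4 and 317 and 327 TPM at 16 h. With FSK it was at 114 and 112 TPM at 8 h and 209 and 202 TPM at 16 h. Both agents thus gave libraries below CON at 8 h, and at 16 h those of Ex-4 overlapped CON while those of FSK did not. The change at 8 h of FSK was -1.49 ± 0.034 (limma adjusted p 2.45e-22), called in TPM, after ERCC scaling and after median-centring. The 16 h FSK change was -0.63 in TPM but -0.25 after ERCC scaling and -0.39 after median-centring, where it was no longer called. The 8 h Ex-4 change was -0.34, which passed the p and not the fold, and -0.21 after ERCC scaling (adjusted p 0.0827), where it did not pass the p.

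In Med14 S983A cells Idh2 was at 313 and 298 TPM in CON, 260 and 259 TPM at 8 h of Ex-4, 93.3 and 99.3 TPM at 8 h of FSK and 208 and 219 TPM at 16 h of FSK. These values lay close to those of WT cells, and the 8 h FSK libraries were the lowest of all 28. The change at 8 h of FSK was -1.65 (limma adjusted p 2.33e-23), whereas those at 8 h of Ex-4 (-0.23) and 16 h of FSK (-0.52) did not reach 1.5-fold.

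The NAD-dependent enzyme did not change as a unit. Idh3a (NM_053638, chromosome 8, 59164601 to 59183899), the catalytic subunit, was at 75.8 and 73.3 TPM in WT CON, 96.8 and 104 TPM at 8 h of Ex-4, 92.5 and 93.1 TPM at 16 h of Ex-4, 126 and 123 TPM at 8 h of FSK and 126 and 136 TPM at 16 h of FSK. In Med14 S983A cells it was at 80.3 and 78.4 TPM in CON, 104 and 101 TPM at both 8 and 16 h of Ex-4, 149 TPM in both libraries at 8 h of FSK and 152 and 151 TPM at 16 h. In both genotypes all libraries at 8 and 16 h lay above CON, and those with FSK above those with Ex-4. The changes with FSK were 0.73 and 0.80 in WT and 0.90 and 0.92 in Med14 S983A cells at 8 and 16 h (limma adjusted p 5.47e-15, 1.01e-15, 5.67e-17 and 6.45e-17), called in TPM, after ERCC scaling and after median-centring. Those with Ex-4 were 0.31 to 0.42 and did not reach 1.5-fold, but the 16 h change in WT cells was 0.62 and called after ERCC scaling.

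Idh3g (NM_031551, chromosome X, 156999826 to 157008735) moved the other way. It was at 319 and 315 TPM in WT CON, 215 and 205 TPM at 8 h of FSK and 245 and 237 TPM at 16 h of FSK. Med14 S983A cells had 275 and 278 TPM in CON, 153 and 156 TPM at 8 h of FSK and 242 and 243 TPM at 16 h. FSK libraries of both times lay below CON in both genotypes. At 8 h the changes of -0.59 and -0.84 were called in TPM (limma adjusted p 4.43e-15 and 3.19e-18). The WT value stands at the fold limit: it was -0.58 and not called after ERCC scaling, -0.20 after median-centring, -0.58 without WT CON replicate 1 and -0.56 without WT 8 h FSK replicate 2. The Med14 S983A value was -0.93 and called after ERCC scaling, and -0.50 and not called after centring. At 16 h, the changes were -0.40 and -0.19 in TPM but -0.01 and 0.04 after ERCC scaling.

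Idh3b (NM_053581, chromosome 3, 122808564 to 122813583), the remaining subunit, was at 162 and 160 TPM in WT CON, 157 and 151 TPM at 8 h of FSK and 180 TPM in both libraries at 16 h of FSK. Med14 S983A cells had 179 and 172 TPM in CON, 154 and 151 TPM at 8 h of FSK and 211 and 210 TPM at 16 h. Its 16 h FSK libraries lay above CON in both genotypes, and no treatment change in TPM reached 1.5-fold. The 16 h changes of 0.16 and 0.26 were 0.54 and 0.50 after ERCC scaling. At 8 h of FSK the sign depended on the scaling, with -0.07 and -0.20 in TPM and 0.32 and 0.14 after median-centring.

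Within libraries, the ratio of Idh3g to Idh3a was 4.21 and 4.30 in WT CON, 2.95 and 2.86 at 8 h of Ex-4 and 3.07 and 3.11 at 16 h of Ex-4. With FSK it was 1.71 and 1.67 at 8 h and 1.95 and 1.74 at 16 h. In Med14 S983A cells it was 3.43 and 3.54 in CON, 2.61 and 2.76 at 8 h of Ex-4 and 1.02 and 1.05 at 8 h of FSK. Every library at 8 or 16 h of either agent lay below CON of its genotype, and Med14 S983A was below WT at CON and at 8 h of both agents without overlap. The ratio of Idh3b to Idh3a fell from 2.14 and 2.18 in WT CON to 1.25 and 1.23 at 8 h of FSK, and from 2.23 and 2.19 to 1.03 and 1.01 in Med14 S983A cells. Per length, the levels of the 3 subunits were thus close to equal in Med14 S983A cells at 8 h of FSK, where untreated cells had more Idh3g and Idh3b than Idh3a. The ratio of Idh2 to Idh3a went from 4.18 and 4.37 to 0.908 and 0.910 in WT cells at 8 h of FSK, so that Idh2 lay above Idh3a in CON and below it at 8 h of FSK.

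Ogdh (NM_001017461, chromosome 14, 86414976 to 86480156), the first component of the 2-oxoglutarate dehydrogenase complex, rose less. WT cells had 52.0 and 48.8 TPM in CON, 65.3 and 65.0 TPM at 8 h of Ex-4, 73.4 and 74.0 TPM at 8 h of FSK and 69.9 and 71.5 TPM at 16 h of FSK. Med14 S983A cells had 46.5 and 43.5 TPM in CON, 56.9 and 54.5 TPM at 8 h of Ex-4, 83.9 and 76.2 TPM at 8 h of FSK and 64.9 and 65.6 TPM at 16 h of FSK. All these treated libraries lay above CON of their genotype. The change was 0.82 and called at 8 h of FSK in Med14 S983A cells (limma adjusted p 6.73e-13), and 0.54 and below 1.5-fold in WT cells. Whether WT cells pass depends on the scaling, since the 8 h value was 0.93 and called after median-centring. By 16 h of FSK its rise in TPM was 0.48 for WT and 0.53 for Med14 S983A cells, and 0.86 and 0.76, both called, after ERCC scaling. Without WT CON replicate 1, the WT 8 h change was 0.59 and called.

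Dlst (NM_001006981, chromosome 6, 108936664 to 108959803), the second component, rose in TPM in Med14 S983A cells but by less than 1.5-fold. It was at 60.1 and 56.4 TPM in CON, 64.4 and 65.9 TPM at 8 h of Ex-4, 88.4 and 84.6 TPM at 8 h of FSK and 76.4 and 72.9 TPM at 16 h of FSK. In WT cells it was at 79.0 and 72.0 TPM in CON, 78.8 and 78.3 TPM at 8 h of FSK and 71.8 and 74.8 TPM at 16 h of FSK. Untreated Med14 S983A libraries lay below untreated WT libraries, and those at 8 h of FSK lay above the WT ones. The change at 8 h of FSK was 0.56 (limma adjusted p 3.04e-11) in Med14 S983A cells, just under 1.5-fold, and 0.06 in WT cells. It was 0.61 without Med14 S983A CON replicate 1 and 0.59 without Med14 S983A 8 h FSK replicate 2, which would be called. After median-centring the 8 h changes were 0.90 (called) in Med14 S983A and 0.45 in WT cells. After ERCC scaling they were 0.47 and 0.07, and those at 16 h of FSK were 0.58 and 0.34, against 0.35 and -0.04 in TPM.

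Ogdhl, a homologue of Ogdh, is not a member of the list but encodes an alternative first component. In WT cells it was at 57.4 and 54.1 TPM in CON and 14.2 and 13.7 TPM at 8 h of FSK, and in Med14 S983A cells at 53.5 and 55.7 TPM and 11.001 and 10.3 TPM. The 8 h FSK libraries lay far below CON in both genotypes. The ratio of Ogdhl to Ogdh was 1.103 and 1.109 in WT CON and 0.193 and 0.186 at 8 h of FSK, and it fell from 1.15 and 1.28 to 0.131 and 0.135 in Med14 S983A cells. This ratio was added after the data were seen. Its changes at 8 h of FSK were -1.92 and -2.26 (limma adjusted p 9.89e-22 and 3.31e-23).

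Cs (NM_130755, chromosome 7, 2752680 to 2778963), the enzyme that starts the cycle, was the steadiest member. It was at 319 and 304 TPM in WT CON and at 324 and 319 TPM in Med14 S983A CON, and its highest libraries, 351 and 346 TPM, were those of Med14 S983A at 16 h of FSK. Its highest group mean was 1.15-fold its lowest in TPM, against 4.47-fold for Sucla2 and 3.34-fold for Idh2. In the order of group means, 11 of 13 neighbouring pairs overlapped. After ERCC scaling the ratio of highest to lowest was 1.54, with changes of 0.43 and 0.35 at 16 h of FSK in WT and Med14 S983A cells, neither of which reached 1.5-fold.

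Scaling bears on these results because the ERCC share of a library differed between groups. It was 0.864% and 0.953% in WT CON and 0.736% and 0.691% at 16 h of FSK, and 0.836% and 0.818% and then 0.715% and 0.671% in Med14 S983A cells. Duplicates of some groups also lay apart. In Med14 S983A cells the share was 0.955% and 0.819% at 16 h of Ex-4 and 1.03% and 0.886% at 1 h of FSK. ERCC-scaled changes of these groups, and interactions that use them, carry that spread. A lower ERCC share raises all transcripts of that library together when values are put on the ERCC scale. The study added the ERCC RNAs to total RNA, so this scale is relative to total RNA and not to a number of cells. On that scale, 8 of the 54 WT member tests were called higher and 1 lower, against 5 and 3 in TPM. For Med14 S983A cells the counts were 7 and 2, against 6 and 2. The share of all genes called on the ERCC scale was 42.8% in WT and 48.2% in Med14 S983A cells at 8 h of FSK, and 33.1% and 34.1% at 16 h. At 16 h of Ex-4 in WT cells, Sucla2 (0.71) and Idh3a (0.62) were called on the ERCC scale, against 12% of all genes, and no member was called in Med14 S983A cells, against 14%.

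The comparison of untreated cells sets Med14 S983A against WT cells without stimulation, where the substitution and the history of a clone cannot be told apart. No member was called by limma, edgeR or DESeq2 under any scaling, against 19.4% of all genes, although 7 of 9 had an unadjusted p under 0.05. In TPM, 2 members passed the adjusted p as higher and 5 as lower in Med14 S983A cells, whereas after ERCC scaling 3 passed as higher and 0 as lower. Dlst differed most in TPM, with -0.37 ± 0.047 (limma adjusted p 1.7e-07), a 1.29-fold lower level, and it was -0.17 with an adjusted p of 0.145 after ERCC scaling. Idh3b and Idh3a were 0.12 and 0.09 higher in TPM (limma adjusted p 0.00178 and 0.048), and with Cs they were the members that passed after ERCC scaling, at 0.32, 0.29 and 0.25. Idh3g was 0.20 lower on the log2 scale in TPM, Sucla2 0.16 and Ogdh 0.16, and after ERCC scaling they stood at 0.00, 0.03 and 0.03, above 0. The 50 genes around Dlst on chromosome 6 had a median difference of -0.05, and the cause of the Dlst difference was not tested.

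The interaction terms ask whether a treatment acts differently in Med14 S983A cells. Of 54 tests, 1 was called: Sucla2 rose less at 8 h of FSK, with a difference of responses of -0.60 ± 0.075 (limma adjusted p 3.07e-07), against 13.9% of all genes called. It was -0.71 after ERCC scaling and -0.65 after median-centring, called in both. It rests on a fold near the limit, since it was -0.50 without Med14 S983A CON replicate 1 and -0.58 without Med14 S983A 8 h FSK replicate 1, both under 1.5-fold. At 8 h of Ex-4 the Sucla2 difference was -0.32 (adjusted p 0.00407) and at 16 h of FSK -0.34 (adjusted p 0.000399), below 1.5-fold but of the same sign. For 16 h of Ex-4 it was -0.09 in TPM (adjusted p 0.334) and -0.52 on the ERCC scale (adjusted p 0.00109). On that scale all 9 members were negative for 16 h of Ex-4, from -0.52 to -0.20 with a median of -0.39 against -0.32 over all genes. There 7 of 9 passed the adjusted p and none was called, while in TPM the median was 0.04 and 2 passed, both higher.

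Dlst showed the opposite sign. Its response at 8 h of FSK was greater in Med14 S983A cells by 0.51 ± 0.066 (limma adjusted p 6.61e-07) and at 16 h of FSK by 0.39 (adjusted p 1.79e-05). Neither reached 1.5-fold, and after ERCC scaling they were 0.40 (adjusted p 0.0202) and 0.25 (adjusted p 0.172). As the TPM levels show, Dlst started lower in Med14 S983A cells and ended at or above the WT level. Idh3g fell more at 8 h of FSK in Med14 S983A cells, by 0.24 (adjusted p 7.15e-05), again below 1.5-fold. The other interactions gave no member called, against 0.672%, 2.77% and 7.24% of all genes for Ex-4 at 1, 8 and 16 h and 1.64% and 17% for FSK at 1 and 16 h. At an unadjusted p under 0.05, 0, 5, 2, 0 and 7 members passed in these 5 terms, and edgeR and DESeq2 called 0 in each.

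**Figure D4:**
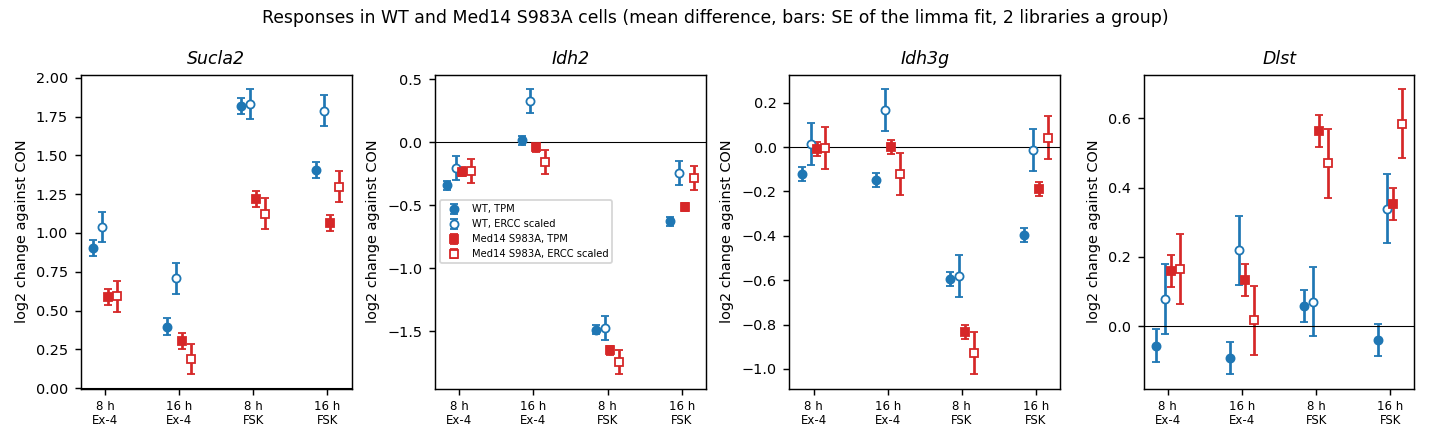
Log2 change against CON of the same genotype (y axis, with its own range in each panel) at 8 and 16 h of Ex-4 and FSK (x axis) for Sucla2, Idh2, Idh3g and Dlst. Filled symbols are TPM and open symbols ERCC-scaled values, blue circles WT and red squares Med14 S983A, with bars for the SE of the limma fit. Sucla2 rose less in Med14 S983A cells at 8 h of FSK (1.22 against 1.82), and Dlst shows the opposite order (0.56 against 0.06).

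The agents were also compared with each other at the same hours. At 1 h no member differed between them by limma, edgeR or DESeq2, against 1.79% of all genes in WT and 3.03% in Med14 S983A cells, with 0 and 2 members at an unadjusted p under 0.05. At 8 h in WT cells 2 members were called, against 28.1% of all genes: Idh2 was higher with Ex-4 than with FSK by 1.15 (limma adjusted p 2.45e-19) and Sucla2 lower by a difference of -0.92. The Med14 S983A cells had 3 called, against 36.5%: Idh2 by 1.42, Idh3g by 0.83 and Sucla2 by -0.63. Of these, the Sucla2 difference was -0.53 and not called after ERCC scaling and -0.58 without Med14 S983A 8 h Ex-4 replicate 1. Over the alternative settings, the Idh3g difference ran from 0.52, below 1.5-fold, to 0.99 in Med14 S983A cells. In WT cells it ran from 0.20 to 0.66. After median-centring 2 members were called in WT and 5 in Med14 S983A cells, and after ERCC scaling 3 and 2.

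At 16 h, Idh2 (0.65) and Sucla2 (-1.01) were called between the agents in WT cells, against 18.7% of all genes, and Sucla2 (-0.76) alone in Med14 S983A cells, against 16.3%. Idh2 in WT cells was at 0.58 and not called after ERCC scaling. Idh3a (-0.90) and Ogdh (-0.75) were called as well in Med14 S983A cells after ERCC scaling, against 24.9% of all genes. The doses of the agents are those of the study and were not matched for cAMP, so the values stand side by side and do not compare potency.

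A further 8 transcripts of the cycle were described from a fixed list (Dld, Suclg2, Sdha, Sdhb, Sdhc, Sdhd, Fh and Mdh2). After 8 h of FSK, 0 were called higher and 1 lower in WT cells (43.6% of all genes called), and 1 higher and 1 lower in Med14 S983A cells (46.1%). After 16 h of FSK these counts were 1 and 1 in WT (34.5%) and 1 and 0 in Med14 S983A cells (33.3%), and in TPM none was called at 1 h or for Ex-4 against CON by limma. On the ERCC scale Mdh2 was called at 16 h of Ex-4 in WT cells (0.64). The median change of the 8 at 8 h of FSK was 0.10 in WT and 0.13 in Med14 S983A cells, where the median over all genes was -0.34 and -0.28.

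Mdh2, the mitochondrial malate dehydrogenase, was called at 16 h of FSK in both genotypes (0.66 in WT and 0.67 in Med14 S983A cells). Dld, the third component of the 2-oxoglutarate dehydrogenase complex, was called at 8 h of FSK in Med14 S983A cells (0.60). It was 0.51 and not called there after ERCC scaling. Sdhb, the iron-sulfur subunit of succinate dehydrogenase, was at 134 and 133 TPM in WT CON and 247 and 252 TPM in Med14 S983A CON. It was the single gene of the list to be called between untreated genotypes (0.90), while Sdha, Sdhc, Sdhd and Fh were called in no contrast in TPM. On the ERCC scale Sdha, Sdhc and Sdhd were each called in 1 contrast or more.

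For each member the gene with the most similar pattern was found among the 7676 other genes whose mean TPM was 10 or more, by Pearson's r over the 14 group means of TPM. Ogdh was closest to Dlat (0.988), a component of the pyruvate dehydrogenase complex, and Dlst to Sdha (0.953), a subunit of succinate dehydrogenase. The nearest genes were Nedd4 for Idh2 (0.991), Vmp1 for Idh3a (0.990), Ncstn for Idh3g (0.984), Fnta for Sucla2 (0.981), Ppfia3 for Suclg1 (0.964), Mycbp for Cs (0.948) and Tango2 for Idh3b (0.917). On ERCC-scaled values the nearest gene was again the one named for Idh3a, Idh3g, Ogdh and Dlst, and another gene for the remaining 5. Groups share libraries and treatments, so these values describe likeness in this table and were not tested.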

How the data were processed

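Total RNA of 28 INS-1 samples received ERCC spike-in RNA and was made into directional paired-end libraries. The authors aligned reads with STAR 2.5.3a to rn6 and deposited TPM per RefSeq transcript, which HOMER 4.11.1 computed over exons, together with raw counts of the 92 ERCC RNAs. Whether HOMER counted by strand is not given in the sources used here. The deposited table also gives each transcript's length.

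Of 19223 rows, the transcript with the highest mean TPM was kept for each symbol, which dropped 1676. TPM times length gave whole reads (within 0.05 reads for 100% of 114296 low values, against 20.1% by chance), with 2 reads to a fragment, from which depth was obtained in fragments. Group means of log2(TPM + 1) were fitted over all 14 groups with limma 3.58.1 (trend) in R 4.3.3 for genes whose mean TPM was 1 or more, and p-values were adjusted within each contrast by Benjamini-Hochberg. Fold changes are on the log2(TPM + 1) scale. ERCC scaling multiplied each library by the mean summed ERCC TPM over its own. Alternatives were other scalings, pseudocounts and filters, leaving out libraries, and the count tools edgeR 4.0.16 and DESeq2 1.42.0, run on those fragments rounded to whole numbers. In simulated data for 16 h of Ex-4 in WT cells (10100 genes), 93% of 2-fold and 99% of 3-fold changes were recovered with 1 wrong call. Only 200 genes were changed there, as many up as down, and all genes had the same dispersion. These figures therefore do not carry over to contrasts such as 8 h of FSK in WT cells, where 43.6% of genes were called. Samples with the same replicate number did not deviate together as a rule (median correlation 0.0035 over 91 pairs of groups). The correlations ran from -0.28 to 0.28, and 17 pairs were over 0.1. The numbers were not taken to pair samples, and these values cannot exclude a batch shared by some groups.

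The genes, the lists and the tests were chosen with earlier results of these data known. Text names each member, genes of the other lists called in at least 1 contrast, and the gene nearest to each member in pattern. Some genes of the lists are not reported here.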

Additional observations from a re-analysis of the deposited data

Results flagged for a closer look

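The response of Sucla2 to 8 h of FSK differed between genotypes by a test of the genotype-by-treatment term. The difference of the Med14 S983A response and the WT response was -0.60 ± 0.075 (SE) on the log2 scale with a limma adjusted p of 3.07e-07. All 4 treated libraries lay above their CON libraries, with 222 and 223 TPM in WT and 128 and 132 TPM in Med14 S983A cells. Leaving out 1 library at a time gave -0.70 to -0.50. Markers of the beta cell other than Ins1 and Ins2 summed to 11717 and 12023 TPM in these WT and to 3326 and 3331 TPM in these Med14 S983A libraries. With Ins1 and Ins2 included, the genotypes overlapped, at 79324 and 81969 TPM in WT and 83753 and 80827 TPM in Med14 S983A libraries. The part of these markers in the difference was not tested. Groups of 2 libraries are too small to look for single libraries that stand apart.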

How the results depend on the processing

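Counts of member calls depended on the scaling and the fold minimum, and no called change turned its direction under any alternative. For WT treatments against CON, 5 higher calls became 8 after median-centring, 8 after ERCC scaling, 9 with the ERCC median ratio, 8 by edgeR with ERCC library sizes, 9 by DESeq2 with ERCC size factors and 12 with no fold minimum. The 3 lower calls became 1 after median-centring, with either ERCC scaling of TPM, by edgeR (TMM), by DESeq2 and by edgeR with ERCC library sizes, and 10 with no fold minimum. For Med14 S983A cells, 6 higher calls became 21 with no fold minimum, and 2 lower calls became 1 after median-centring, by edgeR (TMM) and by DESeq2, and 9 with no fold minimum. Between untreated genotypes, 0 calls became 2 higher and 5 lower with no fold minimum. Interactions went from 0 higher and 1 lower to 11 and 6 with no fold minimum. Between the agents, 4 higher calls became 13 with no fold minimum, and 4 lower calls became 8 after median-centring, by edgeR (TMM) and by DESeq2, and 19 with no fold minimum. Apart from the construction of the scaling or the fold, the cause was not tested.

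Leaving out 1 library at a time gave 5 to 6 higher and 2 to 3 lower calls in WT, 5 to 7 and 2 in Med14 S983A cells, 0 between untreated genotypes, 0 to 1 lower interactions, and 4 higher and 3 to 4 lower calls between the agents. On the ERCC scale, an alternative added after the data were seen, these ranges were 7 to 12 and 1 to 2, 6 to 8 and 2, 0, 1 to 2 lower, and 3 to 5 and 5 to 8. The fit with the replicate number as a block kept the counts at 5 and 3 in WT and 6 and 2 in Med14 S983A cells and changed no other call. The pseudocount, the filters and fits of only the libraries compared left all counts as they were. With 2 libraries a group, folds close to 1.5 (Idh3g, Ogdh and Dlst at 8 h of FSK, Sucla2 in Med14 S983A cells with 8 h of Ex-4) lie on either side of the threshold depending on 1 library.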

Other observations

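Genes that feed the cycle or move its intermediates were described from a list of 15 that was not part of the 9 transcripts. At 8 h of FSK, 2 were called higher and 7 lower in WT cells, against 8.77% and 34.8% of all genes, and 2 and 6 in Med14 S983A cells, against 11.6% and 34.5%, with a list median of -0.49 and -0.47 where that of all genes was -0.34 and -0.28. Got1, the cytosolic aspartate aminotransferase, rose most. It was at 72.2 and 70.2 TPM in WT CON, 127 and 126 TPM at 8 h of Ex-4, 215 and 217 TPM at 8 h of FSK and 265 and 268 TPM at 16 h of FSK. These treated libraries lay above CON, whereas the 1 h libraries did not, and the changes of 0.82, 1.59 and 1.89 were called by limma (adjusted p 1.86e-16, 1.95e-23 and 1.07e-24). Mdh1, the cytosolic malate dehydrogenase, was called at 8 and 16 h of FSK in WT cells (0.61 and 0.69) and at 8 h in Med14 S983A cells (0.69).

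Slc25a10, the mitochondrial dicarboxylate carrier, was at 295 and 282 TPM in WT CON, 117 and 111 TPM at 8 h of FSK and 124 and 120 TPM at 16 h of FSK. It was at 144 and 151 TPM in Med14 S983A CON and 82.9 and 77.8 TPM at 8 h of FSK. Untreated Med14 S983A libraries thus lay below untreated WT libraries (-0.96, called), and FSK libraries lay below CON in both genotypes. Me3, a mitochondrial malic enzyme, was also called lower in untreated Med14 S983A cells (-1.26), at 6.45 and 6.42 TPM against 17.5 and 16.1 TPM in WT cells. Glud1, glutamate dehydrogenase, fell by 0.95 in WT and 0.84 in Med14 S983A cells at 8 h of FSK, and Slc25a1, the citrate carrier, fell by 0.76 and 0.99. After median-centring Glud1 stood at -0.56 and -0.51, not called, and Slc25a1 at -0.37, not called, and -0.66. At 16 h of Ex-4 Slc25a1 was at 232 TPM in both WT libraries, above the 170 and 174 TPM of WT CON. That change was 0.44 and not called in TPM, and 0.75 and called after ERCC scaling. In Med14 S983A cells it was 0.37 in TPM and 0.25 after ERCC scaling, neither called. Acly and Got2 were called in no contrast.

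Smaller numbers of calls concerned the other genes of that list. Idh1, the cytosolic NADP-dependent isocitrate dehydrogenase, was called higher at 16 h of Ex-4 (0.80) and lower at 8 h of FSK (-0.73) in WT cells. Pc, pyruvate carboxylase, was called lower at 16 h of FSK in Med14 S983A cells (-0.88). Me2, another mitochondrial malic enzyme, had a difference of responses of 0.79 at 8 h of FSK. Aco1 (-0.65) was called at 8 h of FSK in WT cells and Slc25a11 (-0.60) in Med14 S983A cells. The median over all genes at 8 h of FSK was itself -0.34 in WT and -0.28 in Med14 S983A cells. Values of Idh1, Aco1 and Slc25a11 after median-centring are not reported here, so these falls are given in TPM only. Me1 was called only between the agents at 8 h (0.59 and 0.64). There the median over all genes was 0.23 in WT and 0.25 in Med14 S983A cells.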
